A study of Mus musculus with 12 samples.

Results

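The BCL2 family genes described here are 10 members chosen by symbol from the 23234 genes of an RNA-seq table of sorted mouse thymocytes. They comprise the anti-apoptotic genes Bcl2, Bcl2l1 and Mcl1, the effector genes Bax and Bak1, and the BH3-only genes Bcl2l11, Bbc3, Pmaip1, Bad and Bid. All 10 were in the table, and 9 averaged 1 FPKM or more (fragments per kilobase of transcript, scaled to the size of the library) and entered the test across 10780 genes. Pmaip1 was below that level and is given by its values. The study examined the zinc-finger factor Bcl11b in CD4+CD8+ double-positive (DP) thymocytes of C57BL/6 mice, sorted as CD24hiTCRβlo cells, the stage before positive selection. Wild-type cells came from newborn thymus (5 libraries). Bcl11bm/m cells also came from newborn thymus (3 libraries) and carry on both copies, in every cell, an allele with a frameshift that truncates Bcl11b before its last zinc finger. Bcl11bfl/fl:Cd4-Cre cells (4 libraries) lose the floxed allele under a Cre driver that acts from the DP stage. The methods give a general age of some weeks for mice used in flow cytometry, and no source used here gives the age of the mice behind these 4 libraries. None of the libraries used here is labelled as carrying Cd4-Cre without the floxed alleles, so that age, transgene and deletion cannot be told apart in this group. The sources used here do not say whether libraries came from separate animals, and p-values then measure only the spread between these libraries.

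Proteins of the BCL2 family set whether the outer mitochondrial membrane stays intact. BAX and BAK, when active, open pores that release cytochrome c and start the caspase cascade. BCL-2, BCL-XL (from Bcl2l1) and MCL-1 hold them in check, and BH3-only proteins such as BIM (Bcl2l11) and PUMA (Bbc3) bind these guardians or activate the effectors. In the thymus, pre-selection DP cells are short-lived and rely mainly on BCL-XL and MCL-1, whereas BCL-2 is high before and after the DP stage and low within it. BIM is the main BH3-only protein in the deletion of self-reactive thymocytes, with a contribution from PUMA.

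Promoter windows are shown for Bcl2 and Bbc3, the 2 members called in a comparison below, and for Bcl2l11, which was called in none but lay without overlap between the mutants, so that their base composition can be read beside the values. RefSeq (GRCm38.p6) gave 15 windows for 9 of the 10 members, each running from 250 bases before to 50 bases after an annotated start. Bbc3 has 3 windows and Bcl2l11 has 2, and the most upstream one is shown. GRCm38.p6 is a later build than that of the expression table, so these coordinates are not to be mixed with the gene positions given further on. Capitals mark 2 kinds of letters searched on both strands: the GC box GGGCGG with its complement CCGCCC, and the hexamers ACCACA and ACCGCA with their complements TGTGGT and TGCGGT, which Runx factors are known to bind. Neighbouring GC boxes may share bases, and the 2 kinds of letters never overlapped in these windows.
Bcl2, chr1:106714241-106714540, minus strand: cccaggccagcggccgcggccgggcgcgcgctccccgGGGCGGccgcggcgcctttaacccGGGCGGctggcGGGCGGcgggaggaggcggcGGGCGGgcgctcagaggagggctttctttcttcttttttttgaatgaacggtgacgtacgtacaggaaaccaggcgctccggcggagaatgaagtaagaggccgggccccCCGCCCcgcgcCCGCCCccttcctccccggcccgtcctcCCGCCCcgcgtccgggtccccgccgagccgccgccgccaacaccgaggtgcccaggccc
Bbc3, chr7:16309333-16309632, plus strand: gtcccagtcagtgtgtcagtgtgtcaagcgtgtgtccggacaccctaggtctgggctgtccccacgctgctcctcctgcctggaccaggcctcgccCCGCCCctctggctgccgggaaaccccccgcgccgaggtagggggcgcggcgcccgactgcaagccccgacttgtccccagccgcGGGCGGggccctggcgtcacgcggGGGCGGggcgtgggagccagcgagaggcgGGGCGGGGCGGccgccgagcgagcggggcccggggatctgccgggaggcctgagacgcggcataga
Bcl2l11, chr2:128125788-128126087, plus strand: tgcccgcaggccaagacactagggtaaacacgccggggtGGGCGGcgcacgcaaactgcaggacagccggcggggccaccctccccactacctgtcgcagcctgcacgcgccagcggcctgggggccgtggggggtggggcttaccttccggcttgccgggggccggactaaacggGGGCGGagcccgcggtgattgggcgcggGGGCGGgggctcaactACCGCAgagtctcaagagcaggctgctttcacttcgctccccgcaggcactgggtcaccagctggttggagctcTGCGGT

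All 3 windows are GC-rich, at 76.0% for Bcl2, 76.0% for Bbc3 and 71.0% for Bcl2l11, against a median of 52.67% over 32851 RefSeq windows of this length. Bcl2 holds 7 GC boxes, Bbc3 holds 5 and Bcl2l11 holds 3, and 35.66% of all windows hold at least 1. Of the 3, the Bcl2l11 window holds Runx letters, at bases 221 and 295 counted from its 5′ end, and 22.41% of all windows hold such letters. Over the 15 windows of the members, 10 hold a GC box and 3 hold Runx letters. These matches describe letters in a window and say nothing of binding.

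The libraries differed in depth and composition in ways that touch the values below. Fragments per library, estimated from the steps of low FPKM values, ranged from 3660000 to 6360000 in wild type, from 2540000 to 3900000 in Bcl11bm/m and from 10240000 to 41040000 in Bcl11bfl/fl:Cd4-Cre. Wild-type library 1 stood apart, with short RNAs at 17.09% of its FPKM, a scaling factor of 0.851 and a median correlation with its own group of 0.912 against 0.927 to 0.934 for the other wild-type libraries. Bcl11b itself was at 132.4 to 291.9 FPKM in wild type, 429.9 to 481.8 in Bcl11bm/m and 115.1 to 139.9 in Bcl11bfl/fl:Cd4-Cre, but a gene-level value does not separate altered from kept exons and so checks the labels only in part. The free-text descriptions call the wild-type libraries Bcl11bm/m and the Bcl11bfl/fl:Cd4-Cre libraries Bcl11b+/+. Groups were taken from the titles and the series design. Thpok (listed as Zbtb7b), a gene whose control by Bcl11b the study examined, was at 0 to 0.216 FPKM in the libraries titled wild type, 41.1 to 50.4 in those of Bcl11bm/m and 9.44 to 56.6 in those of Bcl11bfl/fl:Cd4-Cre, so the wild-type libraries lay apart from both mutants and the mutants overlapped. The extraction text in the labels describes sorting of DN NKT cells, which differs from the DP cells that the source names and descriptions of the same libraries give. All 13 DP markers were detected in every group, among them Cd4, Cd8a and Rag1.

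In wild-type DP thymocytes the anti-apoptotic transcripts were dominated by Mcl1 and Bcl2l1, and Bcl2 was a minor species. Mean levels, which FPKM puts on a per-length scale, were 126.2 ± 15.5 FPKM for Mcl1 (SD, n = 5), 121.7 ± 30.6 for Bcl2l1, 56.3 ± 11.1 for Bak1 and 37.4 ± 13.6 for Bax. The BH3-only genes Bid, Bcl2l11, Bad and Bbc3 followed at 19.3 ± 3.33, 17.0 ± 1.93, 14.4 ± 3.88 and 14.1 ± 2.43 FPKM. Bcl2 came next at 2.39 ± 0.611 FPKM, and Pmaip1, which encodes NOXA, was lowest at 0.876 ± 0.231. Along this order the ranges of neighbours lay apart at 3 steps, between Bcl2l1 and Bak1, between Bbc3 and Bcl2, and between Bcl2 and Pmaip1. Mcl1 exceeded Bcl2l1 in 3 of 5 wild-type libraries, and Bid exceeded Bcl2l11 in 3 of 5, so neither pair is ordered beyond its spread. In Bcl11bm/m, Mcl1 exceeded Bcl2l1 in 3 of 3 libraries, and in Bcl11bfl/fl:Cd4-Cre in 4 of 4.

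**Figure D1:**
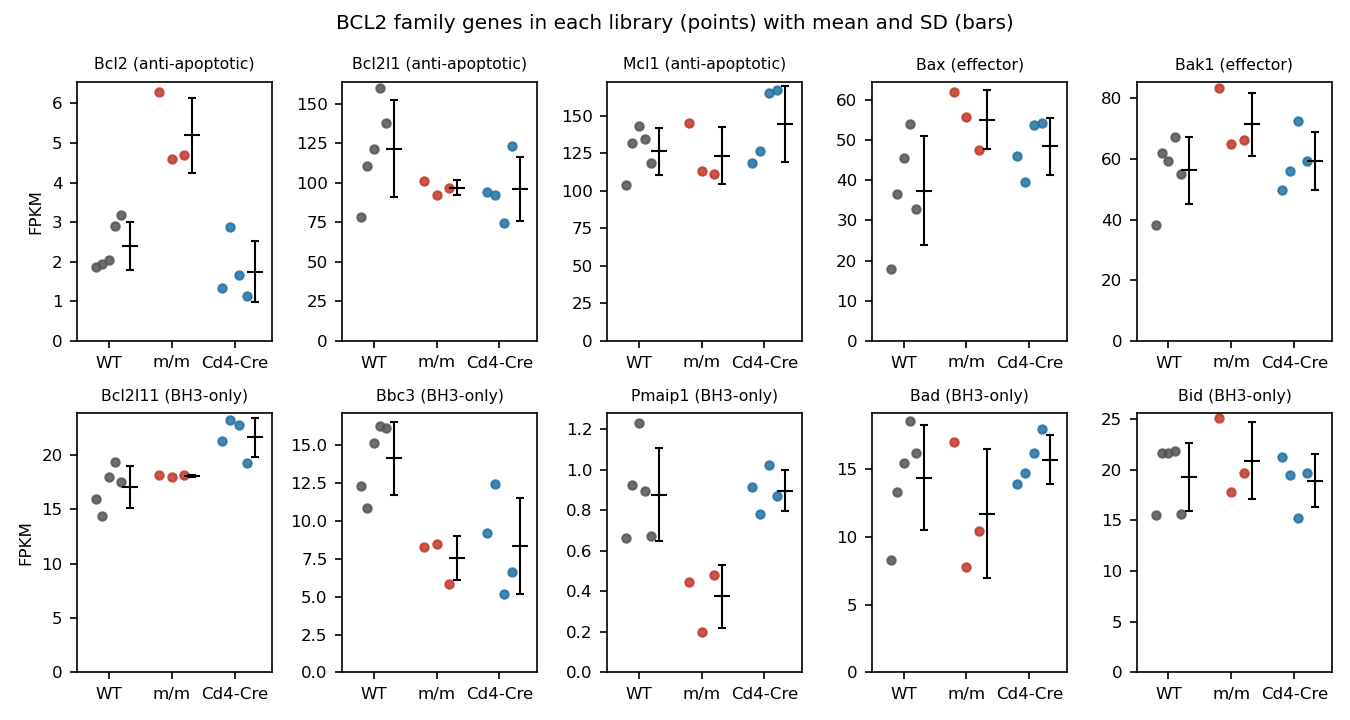
FPKM (vertical axis, linear, each panel with its own scale from 0) of the 10 BCL2 family genes in the 5 wild-type (WT), 3 Bcl11bm/m (m/m) and 4 Bcl11bfl/fl:Cd4-Cre (Cd4-Cre) libraries; points are libraries, and the bars beside them are the mean and SD. The m/m points of Bcl2 lie above those of the other groups, and the m/m points of Bbc3 lie below all WT points.

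The first comparison asked which survival and death genes differ in newborn DP thymocytes when Bcl11b is truncated from the start of T cell development. Bcl2 rose and Bbc3 fell in Bcl11bm/m cells against wild type. These are 2 of the 9 members tested, beside 17.3% of all genes called in this comparison (1866 of 10780), a share near that of the members. With 1 library left out the count over all genes ran from 1021 (without Bcl11bm/m library 2) to 2349 (without wild-type library 1), and it was 1225 without Bcl11bm/m library 1. The difference between Bcl11bm/m and wild type had a median of -0.02 on the log2 scale over all genes tested.

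Bcl2 (chr1:108434755-108610851, minus strand, mm9) was at 1.86, 1.95, 2.06, 2.91 and 3.19 FPKM in wild type and at 6.29, 4.61 and 4.69 FPKM in Bcl11bm/m. The 3 Bcl11bm/m values were above the whole wild-type range, with a ratio of the mean FPKM of 2.17. The difference of mean log2(FPKM + 1), a scale that understates changes of genes as low as Bcl2, was 0.88 (SE 0.18, 95% interval 0.47 to 1.28, adjusted p = 0.0116 by limma with Benjamini-Hochberg adjustment over all genes tested). An exact two-sided permutation test over libraries gave p = 0.0357, the smallest that 3 against 5 libraries allow. Fits that left out 1 library gave 0.75 (without Bcl11bm/m library 1, adjusted p = 0.0469 by limma) to 0.96 (without wild-type library 5, adjusted p = 0.0121), and 0.82 without wild-type library 1 (adjusted p = 0.0189). About 54 to 127 fragments stood behind a wild-type value and 115 to 132 behind a Bcl11bm/m value. The 1 annotated Bcl2 transcript shares exonic bases with D630008O14Rik on the opposite strand, a gene not listed in the table.

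Transcripts of other cell types and stages were also higher in Bcl11bm/m, and their part in the Bcl2 difference was not tested. Of the double-negative (DN) markers, 7 of 7 tested were called higher and 10 of 12 had a higher mean, and the summed level of the 12 was 149.9 to 318.0 FPKM against 23.1 to 58.9 in wild type, with Erg at 0 in all Bcl11bm/m libraries. Of the post-selection markers, 6 of 13 tested were higher (among them Gimap4, Il7r, Itgb7, Klf2 and S1pr1) and 2 lower (Cd5 and Egr2), with sums of 670.2 to 979.0 against 381.3 to 614.2 FPKM. Of the NK cell markers, 3 of 3 tested were higher (Gzma, Klrb1c and Prf1) and 8 of 10 had a higher mean, with sums of 215.8 to 416.3 against 18.6 to 71.4 FPKM and Gzmb at 0 in all Bcl11bm/m libraries. Of the γδ T cell markers, 3 of 5 tested were higher and 5 of 7 in the table had a higher mean, with sums of 111.4 to 152.6 against 0.344 to 1.23 FPKM and Il17a and Il1r1 at 0. Myeloid markers, 3 of 8 tested higher and 9 of 12 with a higher mean, summed to 34.8 to 119.8 against 13.0 to 19.7 FPKM, with S100a8 and S100a9 at 0 in both groups. Stromal markers, of which Pecam1 was higher and Epcam lower among 3 tested and 5 of 10 had a higher mean, summed to 144.4 to 164.8 against 41.0 to 68.3 FPKM, with Foxn1, Col1a2 and Pdgfra at 0. The 13 DP markers summed to 4572 to 5134 FPKM in Bcl11bm/m against 5803 to 7682 in wild type, with 6 called lower (Arpp21, Cd24a, Cd4, Cd8b1, Ptcra and Rag2). B cell and erythroid sums overlapped between the groups. Bcl11bm/m library 1, which held the highest Bcl2 value, also had the highest sum of the 3 in every one of these lists except the γδ markers. Its DN sum was 318.0 FPKM against 169.2 and 149.9 in libraries 2 and 3, its NK sum 416.3 against 215.8 and 226.8, its myeloid sum 119.8 against 47.5 and 34.8, and its B cell sum 41.9 against 12.9 and 12.5. Bulk libraries cannot tell a different number of cells of a type from a different amount of RNA per cell.

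The other anti-apoptotic members did not pass the test in Bcl11bm/m. Bcl2l1 (chr2:152593052-152657464, minus strand) was at 78.2, 110.5, 121.6, 159.9 and 138.1 FPKM in wild type and at 101.5, 92.2 and 96.9 in Bcl11bm/m, a log2 difference of -0.29 (95% interval -0.77 to 0.20). Without wild-type library 1, which held the lowest value, it was -0.44 (adjusted p = 0.0577 by limma), and without library 4, which held the highest, -0.18 (adjusted p = 0.5884). Mcl1 (chr3:95462643-95467099, plus strand) ranged from 103.6 to 143.0 FPKM in wild type and from 111.2 to 145.3 in Bcl11bm/m, a log2 difference of -0.03 (95% interval -0.37 to 0.30). Its ranges overlapped, and its sign turned under quantile scaling and under rescaling without short RNAs. In Bcl11bm/m, Bcl2 thus made up 2.29 ± 0.166% of the summed anti-apoptotic FPKM (SD, n = 3), against 0.959 ± 0.186% in wild type (n = 5). The ratio of Bcl2l1 to Bcl2 was 42.0 to 59.1 in wild type but only 16.1 to 20.7 in Bcl11bm/m, with no overlap, as for Bcl2 alone.

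The effectors were higher on average in Bcl11bm/m, without passing the test. Bax (chr7:52717065-52722268, minus strand) was at 17.9, 36.7, 45.6, 53.9 and 32.9 FPKM in wild type and at 62.1, 55.7 and 47.5 in Bcl11bm/m. The 2 groups overlapped at a single point, since wild-type library 4 exceeded the lowest Bcl11bm/m library. The log2 difference was 0.63 (SE 0.31, 95% interval -0.09 to 1.35, adjusted p = 0.223 by limma). It was 0.39 without wild-type library 1, the lowest of the wild-type values. Bak1 (chr17:27156755-27165954, minus strand) was at 38.1, 61.8, 59.2, 67.3 and 54.9 FPKM in wild type and at 83.3, 64.8 and 66.2 in Bcl11bm/m, a log2 difference of 0.35 (95% interval -0.08 to 0.79, adjusted p = 0.252 by limma). Rescaling the libraries to the same total without short RNAs brought both past the threshold, Bax at 0.73 (adjusted p = 0.0369 by limma) and Bak1 at 0.45 (adjusted p = 0.0068). Bak1 also passed under median-ratio scaling (0.37, adjusted p = 0.0486) and quantile scaling (0.45, adjusted p = 0.0159), whereas without wild-type library 1 it was 0.22 (adjusted p = 0.2132). Bak1 shares exonic bases with Ggnbp1 on the opposite strand, which was listed at a mean of 0.332 FPKM in wild type and 0.214 in Bcl11bm/m.

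**Figure D2:**
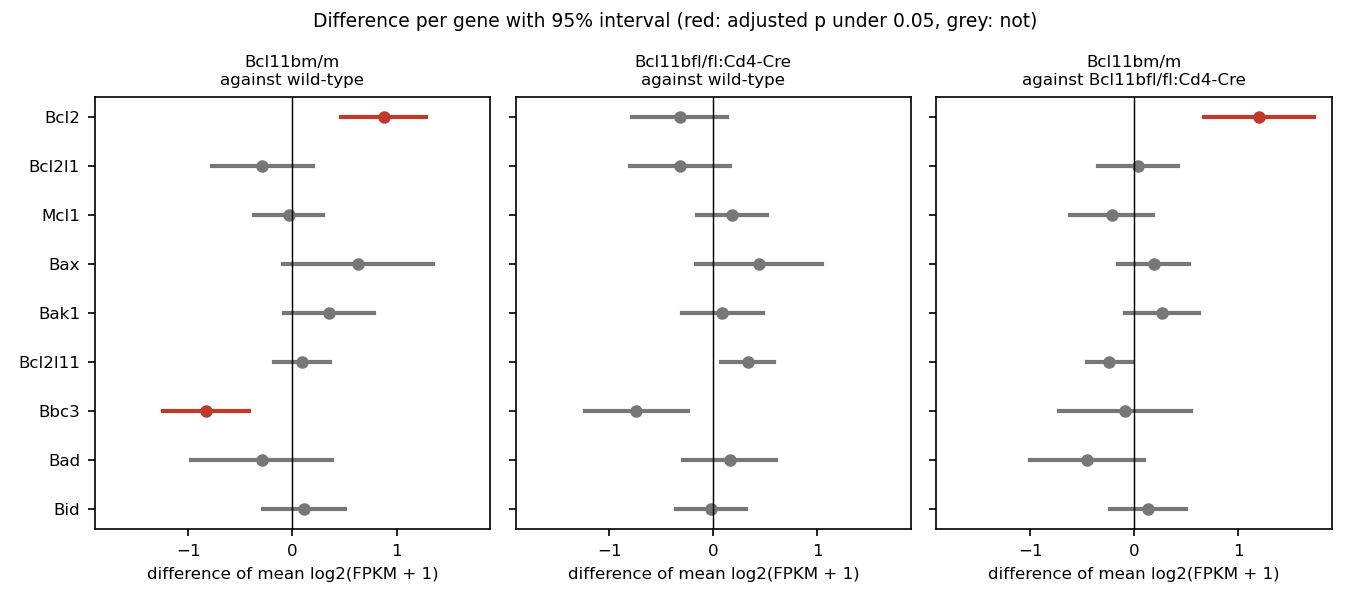
Difference of mean log2(FPKM + 1) (horizontal axis) for the 9 members tested, in each of the 3 comparisons; points are limma estimates, lines are 95% intervals, and red marks an adjusted p under 0.05. Bcl2 at 0.88 and Bbc3 at -0.83 are red against wild type in Bcl11bm/m, no member is red for Bcl11bfl/fl:Cd4-Cre, and Bcl2 at 1.20 is red in the direct comparison.

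Among the BH3-only genes, Bbc3, whose protein PUMA binds all the main guardians, was reduced in Bcl11bm/m. Bbc3 (chr7:16894965-16903554, plus strand) was at 12.3, 10.9, 15.1, 16.2 and 16.1 FPKM in wild type and at 8.25, 8.47 and 5.86 in Bcl11bm/m. All Bcl11bm/m libraries lay below all wild-type libraries, and the mean was 0.533 of the wild-type mean. The log2 difference was -0.83 (SE 0.18, 95% interval -1.24 to -0.41, adjusted p = 0.0158 by limma), and exact permutation gave p = 0.0357. It was -0.87 without wild-type library 1 (adjusted p = 0.0186 by limma). Without Bcl11bm/m library 3, the lowest, the difference was -0.68 and the call was lost (adjusted p = 0.0631). About 38 to 58 fragments stood behind a Bcl11bm/m value, reckoned on the longest Bbc3 transcript (1814 bases). The shortest of its 3 annotated transcripts, at 485 bases, would give fewer.

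Bcl2l11 (chr2:127951774-127988283, plus strand) was close to wild type in Bcl11bm/m. It was at 15.9, 14.4, 18.0, 19.4 and 17.5 FPKM in wild type and at 18.2, 18.0 and 18.1 in Bcl11bm/m, a log2 difference of 0.09 (95% interval -0.18 to 0.36). The Bcl2l11 difference was 0.0345 without wild-type library 2 and 0.136 without wild-type library 4, and neither fit called it. Bad (chr19:7016351-7026388, plus strand), which antagonises BCL-XL and BCL-2 when dephosphorylated, ranged from 8.28 to 18.6 FPKM in wild type and from 7.76 to 17.0 in Bcl11bm/m (log2 difference -0.29, 95% interval -0.97 to 0.38). The Bad difference was -0.58 without Bcl11bm/m library 1, -0.06 without library 2 and -0.47 without wild-type library 1, and no one of these fits called it. Bid (chr6:120841948-120866871, minus strand), which links death receptors to mitochondria after cleavage, ranged from 15.6 to 21.8 and from 17.8 to 25.1 FPKM (log2 difference 0.11, 95% interval -0.29 to 0.51). For these 3 genes the groups overlapped. Bad and Bid share exonic bases with Gpr137 and Bcl2l13 on the opposite strand, whose wild-type means were 5.32 and 13.3 FPKM.

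Pmaip1 (chr18:66618258-66625204, plus strand) was at 0.664, 0.923, 1.23, 0.896 and 0.671 FPKM in wild type and at 0.447, 0.198 and 0.482 in Bcl11bm/m. The 2 groups did not overlap, but only about 2 to 5 fragments stood behind a Bcl11bm/m value and 9 to 14 behind a wild-type value. Exact permutation gave p = 0.0357, and a fit with no filter on low values gave a log2 difference of -0.45 (adjusted p = 0.0584 by limma). Bcl2 and Bbc3 were the 2 of 9 members past the filter without overlap between Bcl11bm/m and wild type, where 25.4% of all genes tested had none. With Pmaip1, which was below the filter, they made 3 of 10 members.

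The second comparison asked what deletion from the DP stage does to the same genes. No member passed the test in Bcl11bfl/fl:Cd4-Cre against wild type, where limma called 14.5% of all genes (1564 of 10780), and 2 of the 9 had an unadjusted p under 0.05, beside 30.6% of all genes at that level. The count over all genes was 2678 without wild-type library 1, 938 without library 2 and 865 without library 5, and dropping Bcl11bfl/fl:Cd4-Cre library 1, 3 or 4 left 700, 778 or 773 called genes. The groups overlapped for every one of the 10 members, where 16.1% of all genes tested showed no overlap. Over all genes the median difference was -0.09 on the log2 scale, and it was 0.01 after median-ratio scaling and 0.04 after rescaling without short RNAs.

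Bbc3 values in Bcl11bfl/fl:Cd4-Cre were 9.17, 12.4, 5.20 and 6.64 FPKM, so that library 2 alone reached into the wild-type range of 10.9 to 16.2. The log2 difference was -0.74 (SE 0.22, 95% interval -1.23 to -0.24), with adjusted p = 0.0513 by limma, just outside the threshold, and exact permutation gave p = 0.0476. Alternatives placed it on either side of the threshold. It passed without Bcl11bfl/fl:Cd4-Cre library 2 (adjusted p = 0.0153), without wild-type library 1 (0.0453), with all 3 groups in 1 fit (0.0320), and with a minimum mean of 5 FPKM (0.0475), library weights (0.0453) or robust variance (0.0423). It did not pass under median-ratio scaling (adjusted p = 0.0724), quantile scaling (0.0624), rescaling without short RNAs (0.1030) or no filter on low values (0.0918), nor in the fits that left out any other library (0.0593 to 0.1373). In the direct comparison of the mutants, Bbc3 differed by -0.09 with a 95% interval of -0.72 to 0.55.

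Bcl2l11 values in Bcl11bfl/fl:Cd4-Cre were 21.3, 23.2, 22.7 and 19.2 FPKM. Of these 4 libraries, 3 lay above every wild-type library, and library 4 lay just under the highest wild-type value of 19.4. The log2 difference was 0.33 (SE 0.11, 95% interval 0.08 to 0.58, adjusted p = 0.0824 by limma), and exact permutation gave p = 0.0317. After median-ratio scaling it was 0.44 (adjusted p = 0.0202), and after rescaling without short RNAs 0.48 (adjusted p = 0.0206). Leaving out wild-type library 1 gave 0.31 (adjusted p = 0.0772).

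Bcl2 in Bcl11bfl/fl:Cd4-Cre was at 1.33, 2.87, 1.68 and 1.14 FPKM, 3 of 4 libraries below the lowest wild-type value and library 2 near the upper end of the wild-type range. Its log2 difference was -0.32 (95% interval -0.78 to 0.13, adjusted p = 0.318 by limma). It was -0.50 without library 2 (adjusted p = 0.0939) and -0.21 without library 4. Bcl2l1, at 94.0, 92.2, 74.6 and 123.6 FPKM, differed by -0.32 (95% interval -0.80 to 0.16), by -0.47 without wild-type library 1 (adjusted p = 0.0751), by -0.21 without wild-type library 4 and by -0.21 without Bcl11bfl/fl:Cd4-Cre library 3. Mcl1, at 118.5, 126.2, 164.8 and 166.8 FPKM, differed by 0.18 (95% interval -0.15 to 0.52), by 0.11 without library 3, library 4 or wild-type library 1, and by 0.30 to 0.35 under the 3 rescalings. Bax ranged from 39.5 to 54.3 FPKM (log2 difference 0.44, 95% interval -0.17 to 1.05) with a difference of 0.21 without wild-type library 1. Bak1, Bad and Bid had intervals of -0.31 to 0.48, -0.29 to 0.61 and -0.36 to 0.32. Without wild-type library 1 the sign of the Bak1 and Bad differences turned, to -0.04 and -0.01. Pmaip1 was at 0.912, 0.779, 1.02 and 0.871 FPKM, within the wild-type range in all 4 libraries, with about 21 to 99 fragments behind a value. Marker genes of other cells differed here too, and their part in these values was not tested. DN sums (76.4 to 198.5 FPKM, 4 of 7 tested higher), stromal sums (83.6 to 129.1, 1 higher and 1 lower of 3 tested) and γδ sums (4.82 to 82.7, 2 of 5 tested higher) lay above wild type without overlap. Sums of post-selection, NK, myeloid, B cell, erythroid and DP markers overlapped wild type, although 5 of 13 tested post-selection markers were called higher and 2 lower. Limma also called 1 NK marker higher and 1 lower of 3 tested, 1 of 4 B cell markers higher, 2 of 8 myeloid markers lower, 2 of 13 DP markers lower and 0 of 3 erythroid markers. Bcl11bfl/fl:Cd4-Cre library 3 had the highest post-selection sum of its group, 950.9 FPKM against 455.7, 503.4 and 472.2 in libraries 1, 2 and 4. Its myeloid sum was 55.9 against 18.9, 8.59 and 15.3, and its NK sum 190.8 against 149.8, 66.5 and 79.9. Its DP (4192), γδ (4.82) and B cell (15.1) sums were the lowest. The same library held the lowest Bbc3 and Bcl2l1 values and the highest Bak1 value of the group.

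The third comparison set the 2 mutants against each other, which also sets newborn against mice of unstated age. Bcl2 was the 1 member of 9 called, where 10.2% of all genes were called (1102 of 10780), and it was higher in Bcl11bm/m. Leaving out 1 library gave between 313 (Bcl11bm/m library 3) and 1121 (Bcl11bfl/fl:Cd4-Cre library 3) called genes, and the count also moved by over 1.5 times, to fewer genes, when Bcl11bm/m library 2 (327) or Bcl11bfl/fl:Cd4-Cre library 1, 2 (649) or 4 (711) was dropped. All 3 Bcl11bm/m libraries, from 4.61 to 6.29 FPKM, lay above the 4 Bcl11bfl/fl:Cd4-Cre libraries, from 1.14 to 2.87, a ratio of the means of 2.96. The log2 difference was 1.20 (SE 0.23, 95% interval 0.67 to 1.73, adjusted p = 0.0215 by limma), and exact permutation gave p = 0.0571, the smallest that 3 against 4 libraries allow. The call was lost in 4 of the 7 fits that left out 1 library, without Bcl11bm/m library 1 (adjusted p = 0.0548), 2 (0.0640) or 3 (0.0674) and without Bcl11bfl/fl:Cd4-Cre library 1 (0.0666). The difference itself stayed between 1.08 and 1.38 in all 7. Marker sums of NK, γδ, stromal and erythroid cells were higher in Bcl11bm/m without overlap here. For NK and γδ markers a minority of genes carried the sums, since 4 of 10 and 2 of 7 had a higher mean, with 1 of 3 and 1 of 5 tested called higher. Of the stromal markers 5 of 10 had a higher mean and 0 of 3 tested were called, and of the erythroid markers 6 of 7 had a higher mean and 2 of 3 tested were called. DN, post-selection, myeloid and B cell sums overlapped. The part of these markers in the Bcl2 difference was not tested.

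Bcl2l11 and Pmaip1 were lower in every Bcl11bm/m library than in every Bcl11bfl/fl:Cd4-Cre library. Bcl2 and Bcl2l11 were the 2 of 9 members past the filter without overlap, where 26.7% of all genes tested had none. With Pmaip1, which was below the filter, they made 3 of 10 members. For Bcl2l11 the ranges were 18.0 to 18.2 against 19.2 to 23.2 FPKM, and the log2 difference was -0.24 (95% interval -0.46 to -0.02, adjusted p = 0.141 by limma). For Pmaip1 they were 0.198 to 0.482 against 0.779 to 1.02 FPKM, and a fit with no filter on low values gave -0.47 (adjusted p = 0.0365 by limma), again on 2 to 5 fragments in Bcl11bm/m. Bcl2l1 differed by 0.03 (95% interval -0.35 to 0.42) and Mcl1 by -0.22 (95% interval -0.61 to 0.18). Bax, Bak1, Bad and Bid had differences of 0.19, 0.27, -0.45 and 0.13, with intervals that all included 0. Without Bcl11bm/m library 1 the Bad difference was -0.73 and was called (adjusted p = 0.0458 by limma), and without library 2 it was -0.21 (adjusted p = 0.5611).

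Summed over roles, the balance between survival and death transcripts is given as a description, with no test. The 3 anti-apoptotic members summed to 250.2 ± 42.0 FPKM in wild type (SD, n = 5), 225.3 ± 24.0 in Bcl11bm/m (n = 3) and 241.9 ± 35.1 in Bcl11bfl/fl:Cd4-Cre (n = 4). The effectors summed to 93.6 ± 24.3, 126.5 ± 16.7 and 107.8 ± 15.0 FPKM in the same order, and the 5 BH3-only genes to 65.7 ± 9.33, 58.6 ± 9.05 and 65.5 ± 4.31. Bmf, a further BH3-only gene described below, does not enter these sums. Its means were 34.8, 76.6 and 65.7 FPKM in the same order, so the sums and the ratio hold for the 10 members only. The ratio of the anti-apoptotic to the pro-apoptotic sum, from which library scaling drops out, was 1.69, 1.53, 1.51, 1.50 and 1.69 in wild type. It was 1.18, 1.22 and 1.26 in Bcl11bm/m and 1.32, 1.33, 1.29 and 1.64 in Bcl11bfl/fl:Cd4-Cre. Over the 10 members, the 3 Bcl11bm/m libraries thus lay below all others. Of the Bcl11bfl/fl:Cd4-Cre libraries, 3 of 4 lay between Bcl11bm/m and wild type, with library 4 inside the wild-type range. The order of the mutants depended on how the balance was formed, since the log2 difference of Bcl11bm/m minus Bcl11bfl/fl:Cd4-Cre, -0.19, was -0.0076 without Mcl1 and 0.10 with medians over members in place of sums. On the log2 scale the group means were 0.66, 0.29 and 0.47. The rise of Bcl2 hardly enters the ratio: leaving out Bcl2 moved the difference between Bcl11bm/m and wild type from -0.37 to -0.39, and leaving out Bax moved it to -0.24. Without Bcl2l1 the difference between Bcl11bfl/fl:Cd4-Cre and wild type moved from -0.19 to 0.03.

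**Figure D3:**
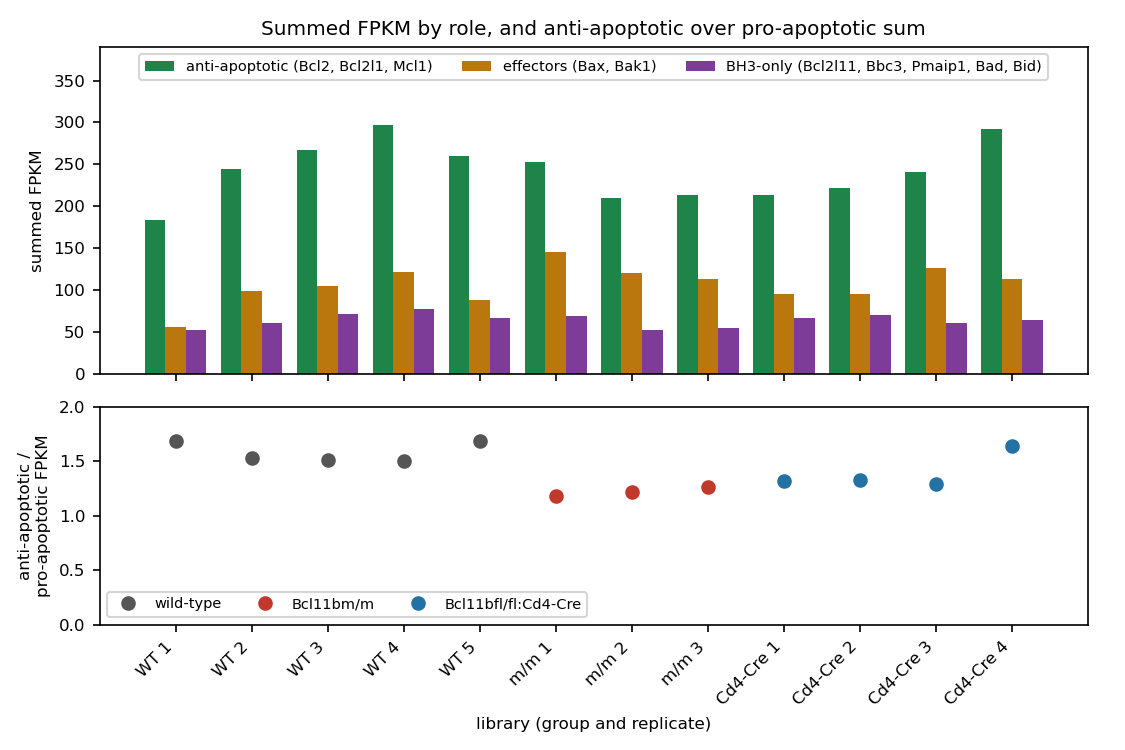
Top, summed FPKM (linear axis from 0) of the anti-apoptotic, effector and BH3-only genes among the 10 members, in each of the 12 libraries. Bottom, the anti-apoptotic sum divided by the pro-apoptotic sum (effectors plus BH3-only, without Bmf). The ratio was 1.50 to 1.69 in wild type, 1.18 to 1.26 in Bcl11bm/m and 1.29 to 1.64 in Bcl11bfl/fl:Cd4-Cre.

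Ratios between a few chosen members are given as a description, with no test. Bcl2 and Bbc3 each lay without overlap between Bcl11bm/m and wild type on their own. Ratios that hold them are therefore not separate results for Bcl11bm/m. How often ratios of other genes lie without overlap was not examined. The ratio of Bcl2 to Bcl2l11, a guardian and a BH3-only protein that it binds, was 0.114 to 0.183 in wild type, 0.256 to 0.346 in Bcl11bm/m and 0.0591 to 0.123 in Bcl11bfl/fl:Cd4-Cre. Bcl11bm/m lay above both other groups, and Bcl11bfl/fl:Cd4-Cre overlapped wild type. The ratio of Bcl2l11 to Bbc3 was 1.08 to 1.33 in wild type, 2.12 to 3.10 in Bcl11bm/m and 1.87 to 4.37 in Bcl11bfl/fl:Cd4-Cre. Here both mutants lay above every wild-type library and overlapped each other. Bbc3 made up 21.6 ± 2.56% of the summed FPKM of the BH3-only members, without Bmf, in wild type (SD, n = 5). The share was 13.0 ± 2.88% in Bcl11bm/m (n = 3) and 12.6 ± 3.97% in Bcl11bfl/fl:Cd4-Cre (n = 4).

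**Figure D4:**
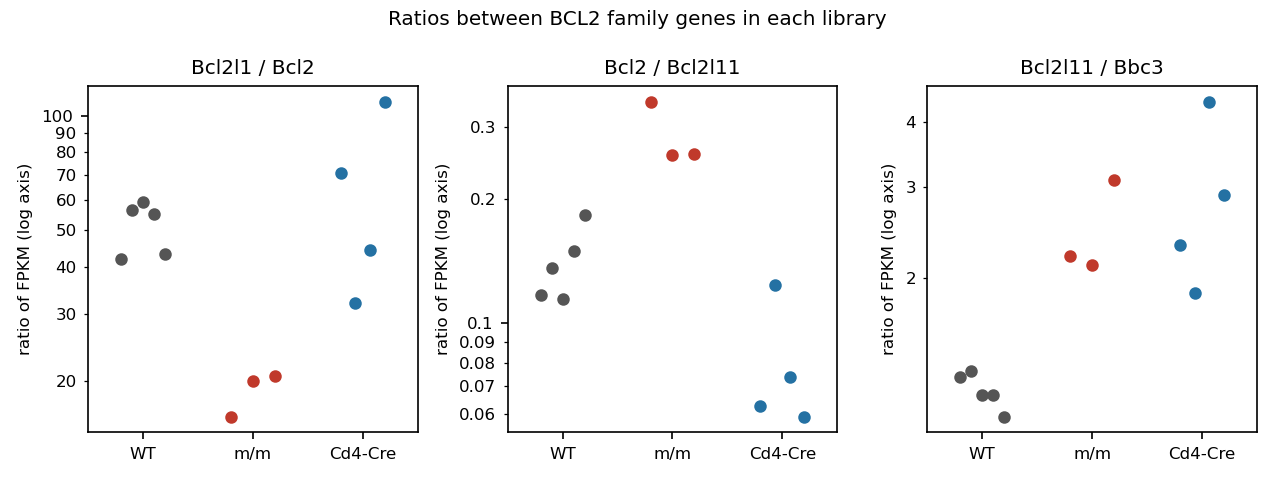
Ratios of FPKM between members in each library (log axis), by group. Bcl2l1 over Bcl2 was 16.1 to 20.7 in Bcl11bm/m (m/m) and at least 32.1 elsewhere, Bcl2 over Bcl2l11 was highest in Bcl11bm/m, and Bcl2l11 over Bbc3 was 1.08 to 1.33 in wild type (WT) and at least 1.87 in both mutants.

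The genes whose pattern over the 12 libraries was most like that of a member were named by Pearson correlation of log2(FPKM + 1) among genes averaging 5 FPKM or more, as a description, since the libraries share groups and scaling. For Bcl2 they were Arap2 (r = 0.935), Dap (0.892) and Ikzf1 (0.889). Ikzf1, which encodes Ikaros, was at a mean of 190.5 FPKM in wild type, 263.1 in Bcl11bm/m and 181.1 in Bcl11bfl/fl:Cd4-Cre. For Bcl2l1 they were Sin3b (0.957), Chrac1 (0.951) and Scand1 (0.942), for Mcl1 Cbr1 (0.918), Snap29 (0.905) and Ppp1r15b (0.896), and for Bcl2l11 Farsa (0.928), Atg16l1 (0.857) and Fbxo46 (0.847).

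Beyond the 10 members, 1 further family gene was called. Bmf, a BH3-only gene, rose in Bcl11bm/m: it was at 21.7, 36.3, 48.1, 33.7 and 34.0 FPKM in wild type and at 111.7, 59.3 and 58.7 in Bcl11bm/m (log2 difference 1.09, SE 0.29, adjusted p = 0.0329 by limma). No overlap was left between these groups. At a wild-type mean of 34.8 ± 9.41 FPKM (SD, n = 5), Bmf was above each of the 5 BH3-only members on this per-length scale. The Bcl11bfl/fl:Cd4-Cre values were 61.6, 110.8, 28.1 and 62.5 FPKM, with library 3 inside the wild-type range, and did not pass the test. Of the 16 remaining family genes 7 were tested, 1 was called higher in Bcl11bm/m (14.3%, beside 17.3% of all genes) and none was called in the other comparisons (14.5% and 10.2% of all genes). Bcl2l12, Bcl2l13 and Bnip3l were the other genes of this list above 10 FPKM in wild type, at means of 24.2, 13.3 and 50.4. The Bcl2a1 genes were at a mean of 0.139 to 0.460 FPKM in wild type, and their near-identical copies can share reads, so their split is uncertain.

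Downstream of the mitochondria, the 19 genes of the apoptosome, caspases and their inhibitors (IAPs) gave 4 called lower and none higher in Bcl11bm/m (21.1%, near the 17.3% of all genes), with a median difference of -0.17 against -0.02 over all genes. Birc5, which encodes survivin and acts in mitosis as well as in apoptosis, fell from 119.5 ± 38.0 FPKM (SD, n = 5) to 45.8 ± 18.5 (n = 3; log2 difference -1.38, adjusted p = 0.0135 by limma). The caspase gene Casp6 fell without overlap (-0.84, adjusted p = 0.0301). After deletion by Cd4-Cre, 3 were lower and 1 higher (21.1%, beside 14.5% of all genes), with a median of -0.12 against -0.09. Birc5 fell to 31.0 ± 21.5 FPKM (n = 4; -2.09, adjusted p = 0.0088), Cycs, which encodes cytochrome c, fell by 0.76 (adjusted p = 0.0138), and Birc3 rose by 0.42 (adjusted p = 0.0399). In the direct comparison 1 was called (5.26%, beside 10.2% of all genes), Dffb, the caspase-activated nuclease, lower in Bcl11bm/m (-0.54, adjusted p = 0.0420).

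Of the death receptors and their adaptors, 12 of 14 were tested, and 6 were called in Bcl11bm/m, 3 in each direction (6 of 12, beside 17.3% of all genes), with a median of 0.27. The ligand gene Tnfsf10 (TRAIL) was at 3.77, 6.08, 6.10, 3.60 and 4.46 FPKM in wild type and at 13.6, 14.2 and 14.2 in Bcl11bm/m (log2 difference 1.40, adjusted p = 0.0015 by limma). Its Bcl11bfl/fl:Cd4-Cre values, 3.65 to 5.41 FPKM, stayed near wild type, and the direct comparison called it higher in Bcl11bm/m (1.43, adjusted p = 0.0017). Tnf (1.82, adjusted p = 0.0085) and the adaptor kinase gene Ripk1 (0.86, adjusted p = 0.0081) also rose, and the receptor gene Tnfrsf1a fell (-1.38, adjusted p = 0.0011). The remaining calls, the receptor genes Fas (-0.75, adjusted p = 0.0116) and Tnfrsf1b (-0.75, adjusted p = 0.0417), were lower too. A further receptor gene tested, Tnfrsf10b, was not called (0.37, adjusted p = 0.2561). In Bcl11bfl/fl:Cd4-Cre Fas was lower without being called (-0.56, adjusted p = 0.0509). Of the 12, 3 were called in Bcl11bfl/fl:Cd4-Cre (25.0%, beside 14.5% of all genes), Ripk1 higher (0.73, adjusted p = 0.0143) and Ripk3 (-0.60, adjusted p = 0.0186) and Tnfrsf1a (-0.53, adjusted p = 0.0330) lower, with a median of -0.04. The direct comparison called 3 of 12 (25.0%, beside 10.2% of all genes), with Tnfrsf1a (-0.84) and Tnfrsf1b (-0.87) lower in Bcl11bm/m and a median of 0.13 against 0.09 over all genes.

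Of p53 and its targets, 14 of 19 genes were tested, and the calls were 14.3%, 7.14% and 0% of them in the 3 comparisons, beside 17.3%, 14.5% and 10.2% of all genes. In Bcl11bm/m the nuclease gene Aen rose (0.50, adjusted p = 0.0206 by limma) and Bcl6 fell (-0.50, adjusted p = 0.0207), with a median of -0.05. In Bcl11bfl/fl:Cd4-Cre Sesn1 rose (0.53, adjusted p = 0.0356), with a median of -0.004 against -0.09, and the direct comparison called none. Bbc3, Bax and Pmaip1 are themselves known p53 targets.

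Of 22 genes listed as regulators of BCL2 family genes in thymocytes, 8 were called in Bcl11bm/m, 6 higher and 2 lower (36.4%, beside 17.3% of all genes), with a median of 0.38. Il7r, the IL-7 receptor chain whose signal is known to maintain Bcl2, was at 0 to 0.0885 FPKM in wild type, at 25.8, 13.3 and 12.2 in Bcl11bm/m and at 4.08, 1.45, 8.96 and 1.55 in Bcl11bfl/fl:Cd4-Cre. All mutant libraries lay far above wild type, and both comparisons called it higher (log2 differences 4.04 and 2.01, adjusted p = 1.52e-05 and 0.0086 by limma). Id2, an inhibitor of E proteins, was higher in both (2.73 and 2.96), as was Runx3 (1.82 and 2.11). Nr4a1, an immediate-early gene of T cell receptor signalling, fell in Bcl11bm/m (-1.94, adjusted p = 0.000281). In Bcl11bfl/fl:Cd4-Cre 7 of 22 were called (31.8%, beside 14.5% of all genes), 5 higher, among them Nfkb1 (0.99, adjusted p = 0.0139), and 2 lower, with a median of -0.06. The direct comparison called 3 of 22 (13.6%, beside 10.2% of all genes), all higher in Bcl11bm/m: Tcf12 (0.82), Lef1 (0.67) and Runx1 (0.58), with a median of 0.13. Il7r also stands in the list of post-selection markers, so the 2 lists are not separate counts.

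Of 17 genes for partners that modify or bind BCL2 family proteins, 16 were tested, of which 6.25%, 18.8% and 6.25% were called in the 3 comparisons, beside 17.3%, 14.5% and 10.2% of all genes. Bag3, a co-chaperone that binds BCL-2, was the single call in Bcl11bm/m (1.53, adjusted p = 0.0039 by limma) and in the direct comparison (2.04, adjusted p = 0.0250), and 3 genes were lower in Bcl11bfl/fl:Cd4-Cre, each with overlapping ranges. Medians were -0.07 in Bcl11bm/m against wild type, -0.17 in Bcl11bfl/fl:Cd4-Cre against wild type and 0.12 between the mutants.

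**Figure D5:**
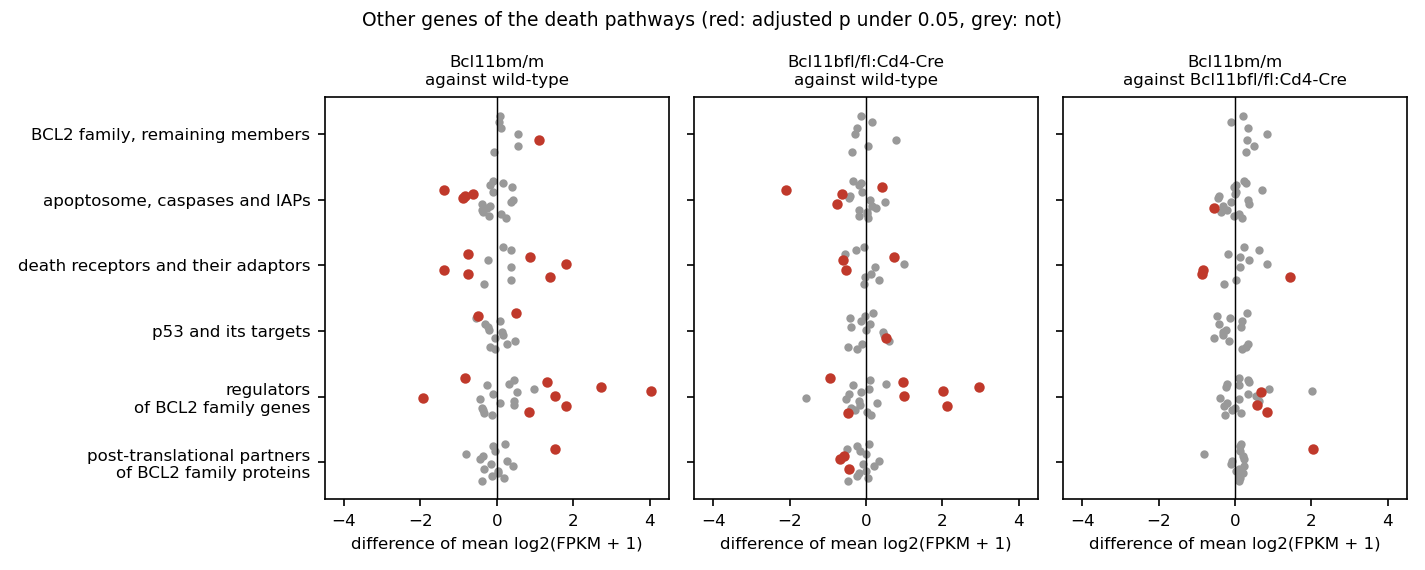
Difference of mean log2(FPKM + 1) (horizontal axis) for the tested genes of 6 lists around the BCL2 family, 1 point per gene, in each of the 3 comparisons; red marks an adjusted p under 0.05. In Bcl11bm/m against wild type the list of regulators holds 8 red points, with Il7r at 4.04 farthest to the right, and the apoptosome list holds 4, all to the left of 0.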

How the data were processed

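RNA-seq of sorted pre-selection DP thymocytes was analysed in 12 libraries (5 wild-type, 3 Bcl11bm/m, 4 Bcl11bfl/fl:Cd4-Cre). The authors deposited 1 table of FPKM values per gene. The study's methods give mapping with tophat2 and quantification with cufflinks, and the submitters' processing notes name TopHat2 2.8.0, Cufflinks 2.1.1 and mm9. The labels and the methods name different library kits, so it is not certain that strand was kept. Gene-level FPKM do not separate isoforms. Gene positions and exon overlaps were taken from the GENCODE annotation of NCBIM37 (mm9).

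FPKM hold no counts. Fragments per library were estimated from the steps of low values, of which 59.0% to 67.2% lay within 0.1 of a whole number of fragments (20% if spread evenly), so fragment numbers are rough and no count test was run. Fragments behind a value assume the longest annotated transcript, and shorter transcripts would give fewer. Genes averaging 1 FPKM or more entered a two-sided limma 3.58.1 test (trend, R 4.3.3) of log2(FPKM + 1), fitted on 1 pair of groups at a time. The Benjamini-Hochberg method adjusted p-values over all 10780, with a threshold of 0.05. The study's methods name no test for this table. Each member also had an exact permutation test of its mean log2 difference. The 95% intervals are for 1 gene at a time. The script was tested on simulated data first.

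Named genes are all members, and of each list the genes called without overlap, up to 4 per comparison by size of difference (other calls are named where the count was small, and some listed genes are not reported here by name), and the 3 genes most like Bcl2, Bcl2l1, Mcl1 and Bcl2l11. Members and lists were chosen with earlier results of these data known. Of the γδ T cell list, 3 of 10 symbols were not matched in the table. Same-numbered libraries did not deviate together (correlations of deviations from -0.211 to 0.152), so numbers were not taken as pairs. Alternatives were other pseudocounts, filters, scalings, fits, and each library or member left out.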

Additional observations from a re-analysis of the deposited data

Results flagged for a closer look

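The log2 ratio of the summed anti-apoptotic to the summed pro-apoptotic FPKM was 0.7126 in Bcl11bfl/fl:Cd4-Cre library 4, against 0.3686 to 0.4135 in the other 3 libraries of that group. Its gap to the nearest library was 0.869 of the range of the group, past the limit for 4 libraries. It was 1 of 22 groups of values looked at in this way, where chance gives about 1.1.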

How the results depend on the processing

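In Bcl11bm/m against wild type 2 members were called. The count was 1 with a minimum mean of 5 FPKM (Bcl2 not tested), 3 with median-ratio or quantile scaling (Bak1 added), 4 after rescaling without short RNAs, 0 with a replicate block (Bcl2 1.06, adjusted p = 0.0752; Bbc3 -0.69, adjusted p = 0.2313) and 1 to 2 with 1 library left out. In Bcl11bfl/fl:Cd4-Cre against wild type 0 were called. The count was 1 with a minimum mean of 5 FPKM or robust variance (Bbc3) and 1 with median-ratio scaling, quantile scaling or rescaling without short RNAs (Bcl2l11). It was 2 with all 3 groups in 1 fit or library weights (Bbc3 and Bcl2l11), 0 with a replicate block (Bbc3 -0.69, adjusted p = 0.1741) and 0 to 1 with 1 library left out. Between the mutants 1 was called. The count was 2 without a filter, 0 with a minimum mean of 5 FPKM (Bcl2 not tested), 0 with a replicate block (Bcl2 1.09, adjusted p = 0.1462) and 0 to 1 with 1 library left out. The cause of these changes was not tested beyond what is named. The numbers do not pair the libraries, and the block spends libraries without a partner: over all genes it called 283, 456 and 30 in the 3 comparisons, against 1866, 1564 and 1102.

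Differences that turned sign were all uncalled. Against wild type in Bcl11bm/m they were Mcl1 (0.0835 quantile, 0.0647 without short RNAs, -0.158 to 0.0336 with 1 library left out) and Bid (-0.0523 library weights, -0.0227 to 0.215). In Bcl11bfl/fl:Cd4-Cre they were Bid (0.0900 median-ratio, 0.0762 quantile, 0.128 without short RNAs, -0.0877 to 0.0763), Bak1 (-0.0575 library weights, -0.0446 to 0.167) and Bad (-0.0146 to 0.254). Between the mutants they were Bcl2l1 (-0.0674 median-ratio, -0.0164 quantile, -0.0196 without short RNAs, -0.0074 library weights, -0.0795 to 0.161), Bid (-0.0036 to 0.234) and Bbc3 (-0.265 to 0.106).

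The log2 ratio of the anti-apoptotic to the pro-apoptotic sum depended on which members entered it. Bcl11bm/m minus wild type (-0.37) became -0.24 without Bcl2l1, -0.48 without Mcl1, -0.24 without Bax and -0.45 without Bbc3. Bcl11bfl/fl:Cd4-Cre minus wild type (-0.19) became 0.0285 without Bcl2l1, -0.47 without Mcl1 and -0.41 when the median log2(FPKM + 1) of the anti-apoptotic members minus that of the pro-apoptotic members, taken in each library, replaced the ratio of sums. Bcl11bm/m minus Bcl11bfl/fl:Cd4-Cre (-0.19) became -0.0076 without Mcl1 and 0.10 with these medians over members. Depth limits Pmaip1, at 2 to 5 fragments in a Bcl11bm/m library.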
